A study of Mus musculus with 6 samples.

Results

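Mouse Zfp genes code mainly for proteins with repeated fingers that each hold a zinc ion between cysteine and histidine pairs and read a few bases of DNA or RNA. Many of them also carry a KRAB domain, which binds the scaffold protein Trim28 and through it brings in the histone methyltransferase Setdb1. KRAB zinc finger genes lie in runs of neighbouring copies on few chromosomes and are best known for silencing retroelements. Other members have a SCAN domain, through which such proteins pair, or no second domain, and work as transcription factors, ubiquitin ligases, ribosome factors or spindle proteins. The name Zfp is therefore shared by proteins of unlike function.

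The members described here were the protein-coding genes whose name is Zfp and a number, without Zfp36, with at least 60 raw reads summed over 6 RNA sequencing libraries. Of 364 such genes in the table, 268 reached that number and 96 did not, and 32 of those 96 had no read at all. The table held 48440 genes, 21683 of them protein coding. The members were thus selected on their own read counts, so that they are expressed is no finding. At the limit, Zfp946 had 63 reads, Zfp493 61 and Zfp459 60, whereas Zfp947 had 57, Zfp951 52 and Zfp988 51 and were left out.

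Stimulated libraries (n = 3) came from primary CD4+ T cells of wildtype mice, taken from spleen and lymph nodes, that were given antibody to CD3 and CD28 for 4 hours before RNA was extracted. Unstimulated libraries (n = 3) came from cells left at rest. Both groups had been activated with plate-bound antibody of the same kind for 3 days and expanded in IL2 for 5 days, so the unstimulated cells were rested, earlier activated T cells and not naive ones. The series describes biological replicates, but nothing says which mice or cultures they came from, so p-values measure only the spread between these libraries.

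Libraries held 29897720 to 30252923 reads. Levels are CPM, read counts scaled to a common library size, here on library sizes scaled by edgeR's TMM method, and 3 reads were worth 0.0943 to 0.106 CPM. The activation genes Il2, Cd69, Egr2 and Nr4a1 summed to 1001 to 1151 CPM in stimulated libraries and 13.8 to 22.1 CPM in unstimulated libraries. The 8 T cell markers summed to 2094 to 2124 CPM in stimulated libraries and 4105 to 4474 CPM in unstimulated libraries, and all 8 fell. The 7 B cell markers, most of it Ighm, summed to 729 to 1281 CPM in stimulated libraries and 1410 to 2865 CPM in unstimulated libraries. The 5 myeloid markers summed to 1.58 to 2.66 CPM in stimulated libraries and 5.06 to 7 CPM in unstimulated libraries. The summed markers of all 3 of these cell types were lower in every stimulated library than in any unstimulated one. The 3 dendritic cell markers summed to 4.22 to 5.72 CPM in stimulated libraries and 1.19 to 2.00 CPM in unstimulated libraries. Among them Zbtb46 and Xcr1 rose and Flt3 fell. The 3 stromal markers, most of it Pecam1, summed to 45.3 to 58.0 CPM in stimulated libraries and 176 to 195 CPM in unstimulated libraries. Among them Pecam1 fell, Col1a1 rose at a low level (log2 fold change 1.12) and Pdgfra was too low to be tested. The 2 cytotoxic T cell markers summed to 20.7 to 25.8 CPM in stimulated libraries and 20.9 to 24.8 CPM in unstimulated libraries. They moved in opposite directions, as Cd8a rose (log2 fold change 1.10) and Cd8b1 fell (-0.33). The 3 erythroid markers summed to 0.177 to 0.620 CPM in stimulated libraries and 0.573 to 1.63 CPM in unstimulated libraries. The 3 natural killer cell markers stayed below 1 CPM in every library. In bulk RNA, fewer cells of a type and less RNA per cell cannot be told apart, and the part of these marker differences in the results below was not tested.

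More Zfp genes fell than rose on stimulation. Of the 265 members that passed edgeR's filter on low counts, 69 rose (26.0%) and 112 fell (42.3%) at a Benjamini-Hochberg adjusted p under 0.05 in edgeR's quasi-likelihood test, and 84 were not called. Among all 13314 tested genes, 38.4% rose and 39.1% fell, so the members' share that fell was near the background and their share that rose was below it. Past 2-fold by edgeR's glmTreat test, 17 members rose (6.42%) and 37 fell (14%), both below the 17.4% and 18.2% of all tested genes. With library size alone in place of TMM, that count was 8 that rose and 47 that fell, and without both libraries of replicate 2 only 10 rose. Fold changes are given as log2 of stimulated over unstimulated. The members' median was -0.24, with quartiles of -0.88 and 0.34, against -0.04 for all tested genes, with quartiles of -0.96 and 0.83.

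Levels of the members kept much the same order in both groups. Across the 268 members, stimulated and unstimulated mean levels had a Spearman correlation of 0.908, a value across genes that share the same libraries. The stimulated and unstimulated libraries did not overlap for 194 of the 265 tested members (73.2%), against 79.8% of all tested genes. Zfp873, Zfp946 and Zfp459 were too low to be tested. The members' summed level was 5714, 5692 and 5483 CPM in the stimulated libraries and 5648, 5547 and 5249 CPM in the unstimulated libraries, and these ranges overlapped. As a share of raw reads the sum was 0.534%, 0.542% and 0.531% in stimulated libraries and 0.587%, 0.582% and 0.556% in unstimulated libraries, which did not overlap, so the order of the sums depends on the scaling.

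The members split by domain. A KRAB profile hit was found in the translated coding sequence of 155 members and not in 113. Of the 152 tested KRAB members, 24 rose (15.8%), 71 fell (46.7%) and 57 were not called, with a median of -0.39. Of the 113 members without KRAB, 45 rose (39.8%), 41 fell (36.3%) and 27 were not called, with a median of 0.04 that is -0.10 when library size alone is used. Set beside the background of 38.4% that rose, the KRAB members' share was well below it and that of the members without KRAB was close to it.

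KRAB RNA as a share of all Zfp RNA does not depend on how libraries are scaled. It was 16.8%, 17.1% and 17.1% of the members' summed level in stimulated libraries and 20.2%, 20.4% and 20.7% in unstimulated libraries. Every stimulated library was below every unstimulated one. The KRAB members summed to 960, 971 and 935 CPM in stimulated libraries and 1143, 1133 and 1088 CPM in unstimulated libraries. Members without KRAB summed to 4754, 4721 and 4547 CPM in stimulated libraries and 4505, 4414 and 4161 CPM in unstimulated libraries.

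**Figure D1:**
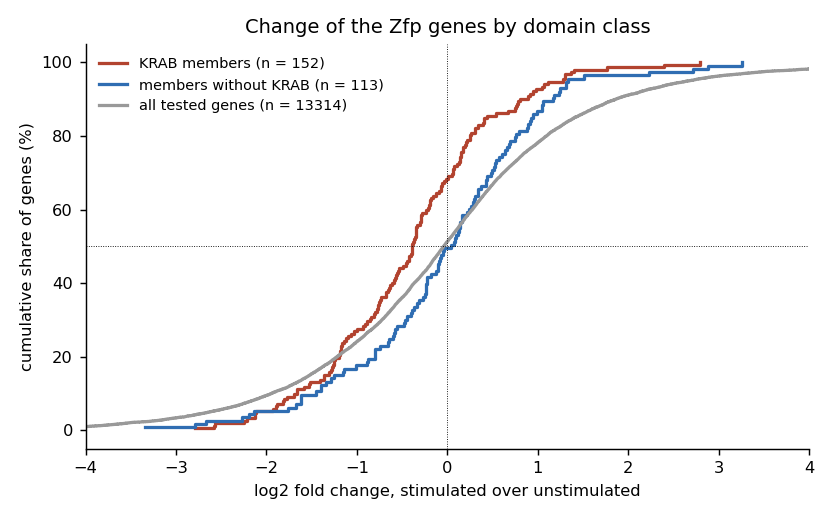
Cumulative share of genes (%, vertical axis) against log2 fold change of stimulated over unstimulated (horizontal axis, drawn between -4 and 4) for tested KRAB members, tested members without KRAB and all tested genes. At both quartiles and the median the KRAB curve lies left of the others, but not in the far left tail. Its median is -0.39 against 0.04 for members without KRAB and -0.04 for all tested genes.

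KRAB members were also the less abundant class, with a median level of 3.45 CPM against 28.8 CPM for members without KRAB. Among members with a mean of at least 10 CPM, 8 of 32 KRAB members rose and 15 fell (median -0.16), and 40 of 89 members without KRAB rose and 31 fell (median 0.09). With library size alone, 34 of those 89 rose and 39 fell (median -0.05). Only 4 of those 32 KRAB members rose with library size alone or without both libraries of replicate 2. Between 2 and 10 CPM, 10 of 73 KRAB members rose and 38 fell (median -0.43), and 4 of 17 members without KRAB rose and 7 fell (median -0.10). Under 2 CPM, 6 of the 47 tested KRAB members rose and 18 fell (median -0.39), and 1 of 7 members without KRAB rose and 3 fell (median -0.37), while without both libraries of replicate 2, or of replicate 3, none of these 7 rose. In each level class a larger share of KRAB members fell than rose, and below 10 CPM that also held for members without KRAB. Under 2 CPM the share of KRAB members that fell, 38.3%, was near the 39.1% of all tested genes. It was 52.1% between 2 and 10 CPM and 46.9% at 10 CPM or more. At 2 CPM or more the KRAB median was the lower one, and under 2 CPM the medians of both classes were close. The background of 38.4% that rose and 39.1% that fell was not split by level, so it is not matched to the low levels of KRAB members.

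**Figure D2:**
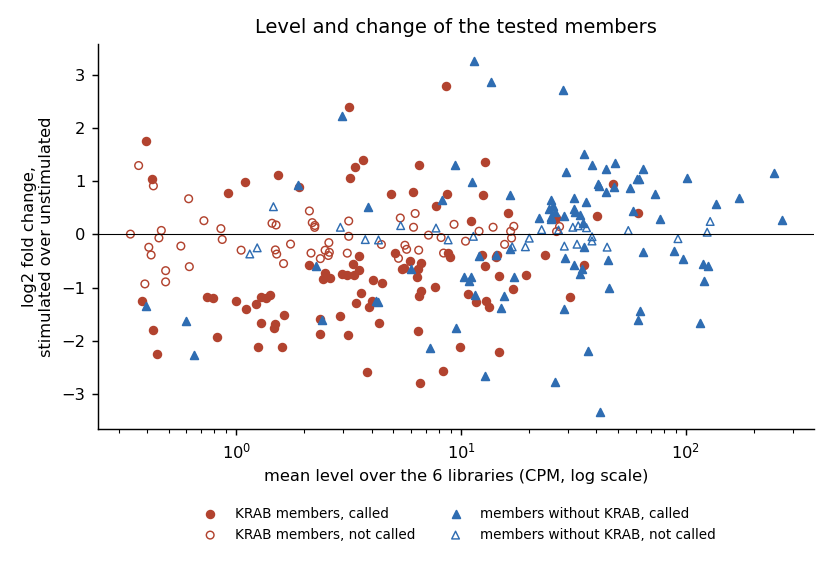
Log2 fold change of stimulated over unstimulated (vertical axis) against the mean level over the 6 libraries (CPM, log scale, horizontal axis) for each tested member, marked by KRAB class and by call. KRAB members gather at low levels (median 3.45 CPM) and members without KRAB at higher ones (median 28.8 CPM).

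Zinc finger genes outside the Zfp names, a comparison added after the members' values were seen, gave similar counts by domain. Of 40 other tested protein-coding genes with a KRAB hit, 5 rose (12.5%) and 20 fell (50%), with a median of -0.39; without both libraries of replicate 2, 3 rose. Of 142 others with at least 3 fingers and no KRAB hit, 59 rose and 50 fell, with a median of -0.01, but with library size alone 53 rose and 60 fell. By family name, 14 of 39 Zbtb genes rose and 14 fell (12 and 17 with library size alone), 3 of 18 Zscan and Zkscan genes rose and 10 fell, 4 of 11 Klf genes rose and 7 fell, and 8 of 16 Zc3h genes rose and 4 fell. These shares were not tested against each other.

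Finger number went with the domain and had little rank correlation with the change. KRAB members had a median of 12 fingers and members without KRAB 7, counted as cysteine and histidine pairs at the usual spacing. The linker TGEKP between fingers occurred at least 5 times in 96 KRAB members and in 12 members without KRAB. Across members, the Spearman correlation of log2 fold change with finger number was -0.09 over the 152 tested KRAB members and 0.02 over the 113 without KRAB. Without KRAB, 61.3% of 31 members with 7 to 10 fingers rose and 25.8% fell. With 11 to 14 fingers 20% of 15 rose and 46.7% fell, and with 3 to 6 fingers 33.3% of 30 rose and 40% fell. Among all tested genes 38.4% rose and 39.1% fell. These finger classes were not tested against each other. Zfp142, which had the most fingers (36), rose, with 53.9, 55.0 and 53.9 CPM in stimulated libraries against 23.0, 23.1 and 19.5 CPM in unstimulated libraries and a log2 fold change of 1.31 (SE 0.0843; edgeR adjusted p = 7.5e-07). It shares 2101 exon bases with Plcd4 on the opposite strand, and reads of the pair cannot be told apart because the strand setting is not given.

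All 12 members with a SCAN domain changed, 6 up and 6 down, where 77.5% of all tested genes were called; with library size alone 4 rose and 6 fell. Zfp202, a SCAN and KRAB protein whose human counterpart represses genes of lipid metabolism, had 15.1, 16.3 and 13.7 CPM in stimulated libraries against 2.45, 2.24 and 1.82 CPM in unstimulated libraries. The groups lay far apart, with a log2 fold change of 2.79 (SE 0.148; edgeR adjusted p = 2.2e-07). Zfp287, also with both domains and chosen after its values were seen, moved the other way, with 3.76, 3.72 and 3.55 CPM in stimulated libraries and 15, 16 and 17.3 CPM in unstimulated libraries (log2 fold change -2.13, SE 0.112; edgeR adjusted p = 2.1e-07).

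The largest rises were in genes of unlike function. This list and that of the deepest falls were limited to genes whose groups do not overlap, so the lack of overlap in them is no result. Zfp296, which has roles in germ cells and in reprogramming to pluripotency, had 20.8, 20.7 and 20.6 CPM in stimulated libraries against 2.04, 1.99 and 2.45 CPM in unstimulated libraries. Its stimulated libraries agreed closely with each other and stood 9.56-fold above the unstimulated ones (log2 fold change 3.26, SE 0.119; edgeR adjusted p = 2.6e-08). It shares 263 exon bases with Gemin7 on the opposite strand. Zfp593, whose human counterpart acts in the making of the large ribosomal subunit, had 22.5, 25.7 and 23.8 CPM in stimulated libraries against 3.47, 3.00 and 3.30 CPM in unstimulated libraries. Replicates agreed closely within each group (log2 fold change 2.88, SE 0.109; edgeR adjusted p = 3.1e-08), but 1627 exon bases are shared with E130218I03Rik on the opposite strand.

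Zfp827, whose human counterpart recruits the NuRD chromatin complex to telomeres, shares exon bases with another gene on the same strand. Zfp827 had 47.3, 56.4 and 44.8 CPM in stimulated libraries against 7.95, 7.71 and 6.91 CPM in unstimulated libraries. Its stimulated libraries spread more than its unstimulated ones (log2 fold change 2.72, SE 0.113; edgeR adjusted p = 5.2e-08). Zfp703, which also shares exon bases with another gene, is a cofactor without a finger of the usual spacing and known in human breast cancer. It had 57.6, 53.8 and 44.8 CPM in stimulated libraries against 18.6, 17.2 and 19.1 CPM in unstimulated libraries. It rose as well (log2 fold change 1.51, SE 0.105; edgeR adjusted p = 1.3e-06).

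Of the 8 largest rises, 3 were KRAB genes: Zfp202, Zfp566 and Zfp59. Zfp566 had 6.03, 4.63 and 5.38 CPM in stimulated libraries against 0.955, 1.36 and 0.723 CPM in unstimulated libraries (log2 fold change 2.40, SE 0.247; edgeR adjusted p = 1.9e-05). Zfp59 had 5.49, 5.65 and 4.82 CPM in stimulated libraries against 2.51, 1.52 and 2.01 CPM in unstimulated libraries (log2 fold change 1.40, SE 0.208; edgeR adjusted p = 0.00022). Both genes were at low levels in unstimulated libraries. Zfp428, without KRAB, shares exon bases with another gene. Zfp428, a small protein with 1 finger, had 3.97, 5.02 and 5.58 CPM in stimulated libraries against 0.732, 0.853 and 1.51 CPM in unstimulated libraries (log2 fold change 2.23, SE 0.285; edgeR adjusted p = 8.1e-05).

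The deepest fall was in Zfp395, whose human counterpart is known as a hypoxia-induced factor. It had 7.05, 7.30 and 7.96 CPM in stimulated libraries against 74.5, 79.7 and 71.7 CPM in unstimulated libraries. The stimulated libraries stood 10.1-fold below the unstimulated ones (log2 fold change -3.34, SE 0.0846; edgeR adjusted p = 6.1e-09). Zfp467, which promotes fat cell over bone cell formation, had 3.33, 3.76 and 3.27 CPM in stimulated libraries against 22.8, 22.9 and 20.2 CPM in unstimulated libraries. Its groups were likewise far apart (log2 fold change -2.67, SE 0.112; edgeR adjusted p = 5.3e-08).

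Among the 8 deepest falls, 4 were KRAB genes: Zfp949, Zfp473, Zfp945 and Zfp386. Zfp949 had 1.49, 1.61 and 1.86 CPM in stimulated libraries against 12.8, 11.6 and 10.1 CPM in unstimulated libraries (log2 fold change -2.79, SE 0.159; edgeR adjusted p = 3.4e-07). Zfp473, whose human counterpart is part of the machinery that trims histone messenger RNA, had 0.709, 1.37 and 1.17 CPM in stimulated libraries against 6.43, 6.45 and 6.66 CPM in unstimulated libraries (log2 fold change -2.58, SE 0.229; edgeR adjusted p = 6.5e-06). The unstimulated libraries agreed closely with each other and the stimulated ones were all lower. Zfp473 shares exon bases with a gene on the opposite strand. Zfp945 had 3.08, 1.54 and 2.55 CPM in stimulated libraries against 12.9, 14.8 and 15 CPM in unstimulated libraries (log2 fold change -2.57, SE 0.218; edgeR adjusted p = 5e-06). Zfp386 had 5.25, 5.37 and 5.03 CPM in stimulated libraries against 22.7, 23.3 and 26.7 CPM in unstimulated libraries (log2 fold change -2.21, SE 0.103; edgeR adjusted p = 1e-07).

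Zfp704 rests on few reads. It had 0.213, 0.0702 and 0.379 CPM in stimulated libraries against 0.668, 1.20 and 1.38 CPM in unstimulated libraries (log2 fold change -2.27, SE 0.509; edgeR adjusted p = 0.0028). Without the stimulated library of replicate 3 the log2 fold change was -2.90. It shares 2525 exon bases with C030034L19Rik on the opposite strand.

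**Figure D3:**
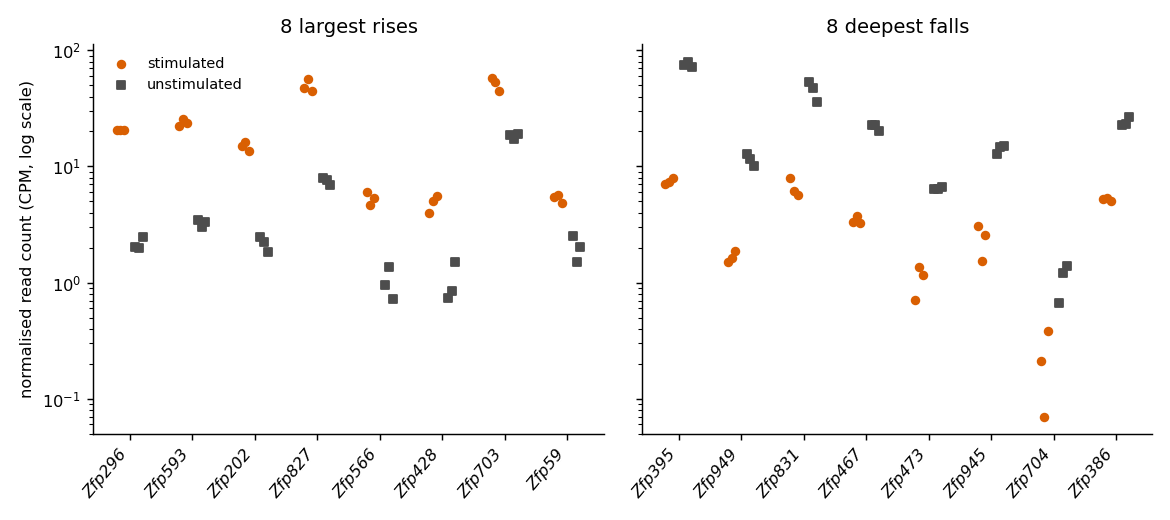
Level in each library (CPM, log scale, vertical axis) of the 8 members with the largest rise and the 8 with the deepest fall; each point is 1 library, and stimulated libraries stand left of unstimulated ones for each gene. The genes were chosen by size of change with no overlap between groups, and span log2 fold changes of 3.26 in Zfp296 to -3.34 in Zfp395.

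The promoters of the largest changes show how differently these genes begin. RefSeq windows on GRCm38.p6, 250 bases before to 50 after the start, were matched by symbol for 223 members. The 2 largest rises and the 2 deepest falls with a window are shown, 5′ to 3′ on the gene's strand, with the letters CACGTG, the core bound by Myc and related factors, in capitals. Zfp296 lies at chr7:19577037-19577336 on the plus strand, Zfp202 at chr9:40192066-40192365 on the plus strand, Zfp949 at chr9:88547770-88548069 on the plus strand and Zfp467 at chr6:48445041-48445340 on the minus strand.
Zfp296: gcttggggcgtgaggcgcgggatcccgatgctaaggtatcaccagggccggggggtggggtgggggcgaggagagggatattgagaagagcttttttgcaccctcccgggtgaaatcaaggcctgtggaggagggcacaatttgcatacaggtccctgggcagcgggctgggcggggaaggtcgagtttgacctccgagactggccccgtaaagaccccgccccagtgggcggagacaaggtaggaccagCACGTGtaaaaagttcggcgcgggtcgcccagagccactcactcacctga
Zfp202: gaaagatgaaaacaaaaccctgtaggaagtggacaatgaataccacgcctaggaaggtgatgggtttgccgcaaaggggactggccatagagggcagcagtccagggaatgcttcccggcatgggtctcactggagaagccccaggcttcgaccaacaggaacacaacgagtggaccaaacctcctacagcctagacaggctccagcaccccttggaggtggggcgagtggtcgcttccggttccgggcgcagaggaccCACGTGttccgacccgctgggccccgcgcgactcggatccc
Zfp949: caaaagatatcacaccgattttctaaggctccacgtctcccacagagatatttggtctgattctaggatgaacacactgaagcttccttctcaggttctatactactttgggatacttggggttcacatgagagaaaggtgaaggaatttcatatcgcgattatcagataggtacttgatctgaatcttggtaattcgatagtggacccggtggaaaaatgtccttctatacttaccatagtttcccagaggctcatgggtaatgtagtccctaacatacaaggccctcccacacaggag
Zfp467: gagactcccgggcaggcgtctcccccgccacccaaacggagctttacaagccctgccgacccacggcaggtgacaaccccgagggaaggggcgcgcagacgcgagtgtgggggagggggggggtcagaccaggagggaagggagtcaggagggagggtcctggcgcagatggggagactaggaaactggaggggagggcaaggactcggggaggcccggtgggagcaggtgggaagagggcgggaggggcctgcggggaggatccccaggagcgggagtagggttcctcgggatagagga
Zfp296 and Zfp202, which rose, each hold CACGTG close to the start, and Zfp949 and Zfp467, which fell, have none in this window. Searched on both strands, the letters were in 10.2% of 59 members that rose, 7.61% of 92 that fell and 11.9% of 9289 tested protein-coding genes with a window. A match of letters is not a measured site. The guanine and cytosine content ran from 43.3% in Zfp949 to 69.7% in Zfp467.

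Zfp143 is itself a member and is known to bind a long promoter site, so Zfp promoters with the core letters of that site, the capitals below, are shown too. Searched on both strands, those letters were in 7 of the 223 members' windows (3.14%), against 78 tested protein-coding genes (0.840%) and 87 of all 27025 genes with a window (0.322%). The sites are given with 10 bases on each side, on the strand that reads the searched letters.
Zfp1: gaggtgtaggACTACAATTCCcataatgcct
Zfp692: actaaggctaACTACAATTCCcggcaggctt
Zfp933: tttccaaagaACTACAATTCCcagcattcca
Zfp180: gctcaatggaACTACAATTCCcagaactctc
Zfp58: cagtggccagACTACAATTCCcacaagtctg
Zfp128: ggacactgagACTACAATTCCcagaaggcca
Zfp93: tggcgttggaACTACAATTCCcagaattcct
Zfp1 and Zfp692 rose, Zfp128 and Zfp93 fell, and Zfp933, Zfp180 and Zfp58 were not called, so genes with these letters moved in both directions. In Zfp1 the log2 fold change was 1.30 (SE 0.165) and in Zfp93 -2.11 (SE 0.411). Zfp143 itself had 39.4, 37.7 and 36.7 CPM in stimulated libraries against 30.9, 29.2 and 27.9 CPM in unstimulated libraries, a small rise with no overlap (log2 fold change 0.37, SE 0.0734; edgeR adjusted p = 0.0014). Zfp523, a close relative, had 8.90, 12.3 and 12.5 CPM in stimulated libraries and 9.77, 11.1 and 13.6 CPM in unstimulated libraries, which overlapped (log2 fold change -0.04; edgeR adjusted p = 0.85).

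The 6 most abundant members per exon length had no KRAB hit, and a spindle protein, a ribosome factor and an RNA-binding protein were among them. Zfp207, a spindle protein that binds the checkpoint protein Bub3, came first, with 43.8 ± 0.975 CPM per kilobase in stimulated libraries and 36.4 ± 0.549 CPM per kilobase in unstimulated libraries (SD, n = 3 each). Its 298, 293 and 285 CPM in stimulated libraries lay above the 241, 240 and 247 CPM in unstimulated libraries, a small rise (log2 fold change 0.27, SE 0.0577; edgeR adjusted p = 0.0023) that was not called with library size alone. Zfp598, the ubiquitin ligase that marks collided ribosomes, had 137, 136 and 136 CPM in stimulated libraries against 66.9, 65.8 and 63.9 CPM in unstimulated libraries. Replicates agreed closely and the groups were well apart (log2 fold change 1.06, SE 0.0598; edgeR adjusted p = 3.2e-07).

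Zfp106, an RNA-binding protein needed in motor neurons, had 354, 342 and 322 CPM in stimulated libraries against 162, 153 and 139 CPM in unstimulated libraries (log2 fold change 1.16, SE 0.0759; edgeR adjusted p = 8.2e-07). Zfp706, a protein of 76 residues, also rose, with 153, 168 and 168 CPM in stimulated libraries against 105, 110 and 114 CPM in unstimulated libraries (log2 fold change 0.57). Zfp740 was the only 1 of these 6 that fell, with 85.1, 84.2 and 85.0 CPM in stimulated libraries against 160, 154 and 156 CPM in unstimulated libraries (log2 fold change -0.89, SE 0.0593; edgeR adjusted p = 9.8e-07). Zfp281, a transcription factor of pluripotent cells, was not called, with 145, 134 and 138 CPM in stimulated libraries and 133, 124 and 95.3 CPM in unstimulated libraries, where 1 unstimulated library was low (log2 fold change 0.24, SE 0.117; edgeR adjusted p = 0.084). With the replicate block (edgeR adjusted p = 0.017) or without the unstimulated library of replicate 1 (edgeR adjusted p = 0.019) it was called as higher. The 10 most abundant members held 29.9% to 30.4% of the members' summed level in stimulated libraries and 26.9% to 28.2% in unstimulated libraries.

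Of the 12 members listed for RNA, ribosome and mitotic functions, 7 rose, 1 fell and 4 were not called, with a median of 0.30. These shares, 58.3% up and 8.33% down, stand beside 38.4% and 39.1% of all tested genes, and with library size alone 6 rose and 2 fell. The risers included Zfp593, Zfp598 and Zfp106. The member that fell was Zfp277, with 24, 26.3 and 25.3 CPM in stimulated libraries against 38.9, 43.2 and 44.6 CPM in unstimulated libraries (log2 fold change -0.75, SE 0.0808; edgeR adjusted p = 2.6e-05). Zfp622, whose human counterpart also acts on the large ribosomal subunit, had 90.2, 87.9 and 90.8 CPM in stimulated libraries and 97.4, 99.9 and 86.9 CPM in unstimulated libraries, which overlapped (log2 fold change -0.08; edgeR adjusted p = 0.33). Zfp638, an RNA-binding protein linked to silencing of foreign DNA, also overlapped, with 127, 133 and 118 CPM in stimulated libraries and 134, 124 and 109 CPM in unstimulated libraries (log2 fold change 0.04; edgeR adjusted p = 0.68).

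The 9 members listed for T cells and other immune cells did not move together: 1 rose, 5 fell and 3 were not called, with a median of -0.32, where 38.4% of all tested genes rose and 39.1% fell; without the unstimulated library of replicate 1, or both of replicate 1, 2 rose. Zfp91, a ubiquitin ligase of the non-canonical NF-kB pathway, was the 1 that rose, with 228, 213 and 197 CPM in stimulated libraries against 139, 135 and 125 CPM in unstimulated libraries (log2 fold change 0.68, SE 0.0773; edgeR adjusted p = 3.6e-05). It shares 847 exon bases with Cntf on the same strand. Zfp831 fell, with 7.97, 6.18 and 5.65 CPM in stimulated libraries against 52.9, 47.8 and 35.8 CPM in unstimulated libraries (log2 fold change -2.78, SE 0.181; edgeR adjusted p = 1.4e-06). The unstimulated library of replicate 3 was the lowest of its group.

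Zfp683, also called Hobit, a factor of tissue-resident lymphocytes, had 1.91, 2.04 and 3.48 CPM in stimulated libraries against 5.89, 5.47 and 6.41 CPM in unstimulated libraries (log2 fold change -1.25, SE 0.236; edgeR adjusted p = 0.00099). Zfp318, which lets B cells make IgD beside IgM, had 26.2, 25.7 and 24.5 CPM in stimulated libraries against 42.5, 36.6 and 34.6 CPM in unstimulated libraries (log2 fold change -0.58, SE 0.0916; edgeR adjusted p = 0.00034). The B cell markers were lower in stimulated libraries as well (729 to 1281 CPM against 1410 to 2865 CPM), and their part in this fall was not tested. Zfp148 fell slightly, with 81.5, 80.4 and 75.4 CPM in stimulated libraries against 105, 105 and 85.9 CPM in unstimulated libraries (log2 fold change -0.32, SE 0.0901; edgeR adjusted p = 0.0099). Zfp335, needed for T cells to mature, had 36.5, 38.7 and 37.8 CPM in stimulated libraries and 40.8, 39.3 and 36.3 CPM in unstimulated libraries, with overlap (log2 fold change -0.04; edgeR adjusted p = 0.6).

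Of the 24 members listed as transcription factors and cofactors, 14 rose, 8 fell and 2 were not called, with a median of 0.32. Their share that rose was 58.3%, against 38.4% of all tested genes, and their share that fell, 33.3%, was near the 39.1% of all tested genes. With library size alone 10 rose and 10 fell. Beside Zfp296 and Zfp827, Zfp131 was among the clearest rises, with 91.8, 92.4 and 86.5 CPM in stimulated libraries against 38.1, 38.6 and 38.1 CPM in unstimulated libraries (log2 fold change 1.24, SE 0.0622; edgeR adjusted p = 1.6e-07). Zfp260, a partner of Gata4 in heart muscle, fell, with 15, 12.3 and 12.1 CPM in stimulated libraries against 57.0, 62.1 and 61.6 CPM in unstimulated libraries (log2 fold change -2.20, SE 0.0997; edgeR adjusted p = 8.6e-08). Zfp217, whose human counterpart sits in CoREST complexes and is amplified in breast cancer, had 56.1, 50.6 and 57.9 CPM in stimulated libraries against 192, 180 and 153 CPM in unstimulated libraries (log2 fold change -1.67, SE 0.0984; edgeR adjusted p = 4.1e-07). In all 3 of these genes the groups were well apart. Zfp410, an activator of the NuRD subunit gene Chd4, was not called, with 25.2, 29.1 and 25.5 CPM in stimulated libraries and 27.6, 32.0 and 33.5 CPM in unstimulated libraries (log2 fold change -0.22; edgeR adjusted p = 0.07). It was called as lower with the replicate block (edgeR adjusted p = 0.023) and with library size alone (edgeR adjusted p = 0.011).

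Retroelement and imprint control is the best known task of KRAB zinc finger proteins, and 4 of 8 genes listed for it were members: Zfp445, Zfp568, Zfp809 and Zfp932. Zfp568, which silences a placental Igf2 transcript, had 19.7, 19.5 and 16.1 CPM in stimulated libraries against 7.54, 8.15 and 5.75 CPM in unstimulated libraries (log2 fold change 1.37, SE 0.148; edgeR adjusted p = 2.6e-05). Zfp445, which keeps imprints, had 45.1, 48.3 and 41.3 CPM in stimulated libraries against 37.8, 37.4 and 31.3 CPM in unstimulated libraries (log2 fold change 0.34, SE 0.0964; edgeR adjusted p = 0.01). Both were higher in every stimulated library, though for Zfp445 by little. Zfp932, which binds endogenous retroviruses, passed the threshold at a very low level, with 0.603, 0.632 and 0.482 CPM in stimulated libraries against 0.191, 0.316 and 0.314 CPM in unstimulated libraries (log2 fold change 1.05, SE 0.352; edgeR adjusted p = 0.022). Zfp809, which silences retroviruses through the primer binding site, overlapped, with 7.73, 7.30 and 6.27 CPM in stimulated libraries and 6.49, 5.40 and 4.31 CPM in unstimulated libraries (log2 fold change 0.39; edgeR adjusted p = 0.065). Of these 4 members, 3 rose (75%), where 38.4% of all tested genes rose and 39.1% fell. With library size alone Zfp445 lost its call, and with DESeq2 Zfp932 did, so that 2 rose in each. With the replicate block Zfp809 was called as well (edgeR adjusted p = 0.012), and all 4 rose. Without both libraries of replicate 2, only 1 of the 3 rises was called.

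The KRAB co-repressor genes, which are no members, changed in both directions. Of 31 tested, 16 rose (51.6%), 13 fell (41.9%) and 2 were not called, with a median of 0.28, against 38.4% that rose and 39.1% that fell among all tested genes. Trim28, the scaffold that KRAB domains bind, averaged 516 ± 17.5 CPM in stimulated libraries and 300 ± 12.3 CPM in unstimulated libraries (SD, n = 3 each; log2 fold change 0.78; edgeR adjusted p = 2.9e-06). Setdb1 averaged 115 ± 8.70 CPM in stimulated libraries and 63.6 ± 4.88 CPM in unstimulated libraries (log2 fold change 0.86; edgeR adjusted p = 1.3e-05). Hdac2, Morc2a and the HUSH subunit gene Pphln1 rose further, with log2 fold changes of 1.60, 2.00 and 1.51. Atf7ip, a partner of Setdb1, and the NuRD subunit genes Mta3 and Chd3 fell, with log2 fold changes of -1.51, -1.71 and -1.03. Other NuRD subunit genes went both ways. Mbd3 (1.43), Rbbp7 (1.26), Chd4 (0.62) and Gatad2a (0.44) rose, beside Hdac2. Hdac1 (-0.58), Rbbp4 (-0.50) and Gatad2b (-0.39) fell, and Mta1 and Mta2 were not called.

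KRAB genes lie in runs of at least 3 Zfp genes with at most 250 kilobases between neighbouring starts, and 115 of the 155 KRAB members did, against 25 of the 113 without KRAB. KRAB members gave similar counts in and outside runs: 17 of 112 tested in runs rose and 51 fell, and 7 of 40 outside runs rose and 20 fell, or 4 that rose without both libraries of replicate 2. Chromosome 17 held 33 members, 29 of them with KRAB. Of its 32 tested members, 5 rose (15.6%) and 21 fell (65.6%), with a median of -0.75 (3 rose without both libraries of replicate 2), whereas of the 655 other tested genes of that chromosome 38.3% rose and 40.2% fell.

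The longer run of chromosome 17, at chr17:21383748-22456689 on GRCm38, held 18 Zfp genes, of which 15 were members and all of those had KRAB. Of the 655 tested genes of chromosome 17 that are no members, 38.3% rose and 40.2% fell. Of the 14 tested members of this run, 11 fell, 1 rose and 2 were not called, with a median of -0.93. Zfp995 had the smallest p, with 0.532, 0.562 and 0.689 CPM in stimulated libraries against 2.58, 2.62 and 2.61 CPM in unstimulated libraries (log2 fold change -2.12, SE 0.222; edgeR adjusted p = 2e-05). Zfp52 was the 1 that rose and was picked for that, with 4.29, 4.56 and 5.48 CPM in stimulated libraries against 1.88, 1.71 and 2.33 CPM in unstimulated libraries (log2 fold change 1.28, SE 0.192; edgeR adjusted p = 0.00024). Neighbours in this run moved in opposite directions, and without the unstimulated library of replicate 3 there were 2 that rose.

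The other run of chromosome 17, at chr17:32765496-33394641, had 9 members, all with KRAB. Beside the 38.3% that rose and 40.2% that fell among the chromosome's 655 non-members, 6 members of this run fell. In it 1 rose and 2 were not called (median -1.04). Zfp101 led it, with 2.98, 2.53 and 3.07 CPM in stimulated libraries against 9.07, 9.96 and 11.1 CPM in unstimulated libraries (log2 fold change -1.81, SE 0.146; edgeR adjusted p = 3.4e-06). The 1 that rose was Zfp472 (log2 fold change 0.54; edgeR adjusted p = 0.0047), a call lost without both libraries of replicate 2. A run of chromosome 13, at chr13:67038596-67827002, was as large, with 16 members, all with KRAB. There 5 of 15 tested members fell, 1 rose and 9 were not called (median -0.37), where 39.7% of the 464 other tested genes of that chromosome rose and 37.7% fell, so the share that fell was near the background. Without both libraries of replicate 2, 1 fell, and without either library of replicate 2, or both of replicate 3, 3 fell. Zfp273 had the smallest p there (log2 fold change -1.31, SE 0.237; edgeR adjusted p = 0.00079).

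A run of chromosome 7, at chr7:29768552-30169750, had 14 members, of which 4 rose, 3 fell and 7 were not called (median -0.02). With library sizes without the 20 most abundant genes, 5 fell. Among the other tested genes of that chromosome 33.6% rose and 43.5% fell. The run holds 3 genes already described with large changes, Zfp566 and Zfp568 upward and Zfp260 downward. Zfp566 and Zfp260 are neighbours, the end of the one at 30090527 and the start of the other at 30094777, on opposite strands. A run of chromosome 6, at chr6:47819266-48086593, had 7 members, of which 4 rose, 2 fell (1 without both libraries of replicate 3) and 1 was not called (median 0.31). Among the other tested genes of that chromosome 30.9% rose and 39.3% fell. Zfp212 fell most in this run, with 18.6, 17.7 and 19.9 CPM in stimulated libraries against 41.7, 41.4 and 44.7 CPM in unstimulated libraries (log2 fold change -1.19, SE 0.0785; edgeR adjusted p = 9.1e-07). Zfp786, of the same run, rose from few reads, with 0.567, 0.527 and 0.758 CPM in stimulated libraries against 0.127, 0.190 and 0.220 CPM in unstimulated libraries (log2 fold change 1.76; edgeR adjusted p = 0.0022).

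**Figure D4:**
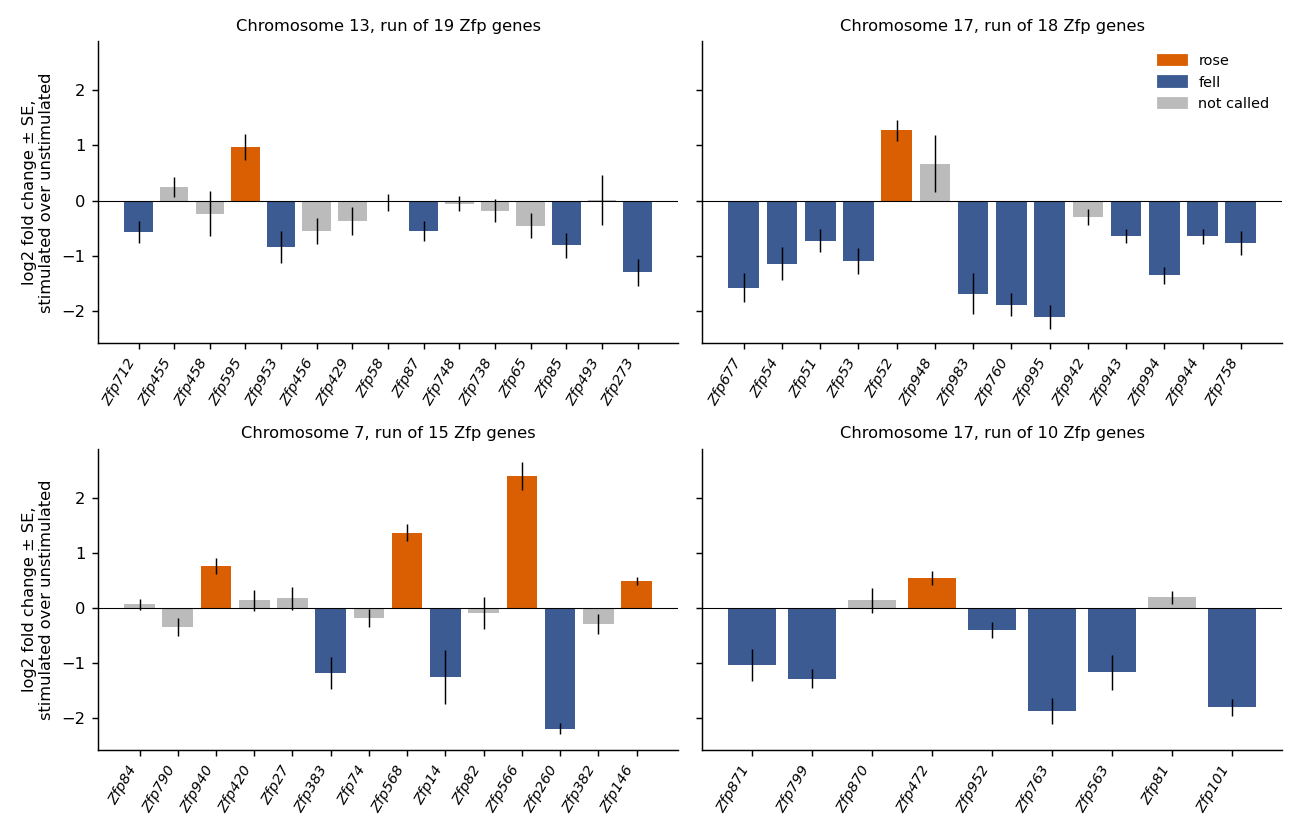
Log2 fold change of stimulated over unstimulated (vertical axis, bars with SE) for the tested members of 4 genomic runs, in chromosome order. Both runs of chromosome 17 have mostly falls, with 1 member each that rose, while the run of chromosome 7 has members past a log2 fold change of 2 in both directions.

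Reads shared between genes limit some of these values. Exons of 71 members overlap a gene on the opposite strand, and of the 70 tested, 23 rose (32.9%) and 24 fell (34.3%). Exons of 25 members overlap a gene on the same strand, and of these 5 rose (20%) and 11 fell (44%). Of the 176 members with no exon overlap and no near-identical copy, 174 were tested, 41 rose (23.6%) and 81 fell (46.6%), with a median of -0.35. Among all tested genes 38.4% rose and 39.1% fell. Past 2-fold, 10% of the 70 members with an opposite-strand overlap rose and 4.29% fell. For the 174 these shares were 4.6% and 19%, and for all tested genes 17.4% and 18.2%. Of the 174, 65 had no KRAB, and of these 23 rose and 24 fell (median -0.07). The largest log2 fold change among these 65 was 1.31. Of the 109 with KRAB, 18 rose and 57 fell (median -0.46). In 6 members over 20% of the coding sequence was near-identical to another gene, at 97% or more over at least 100 bases, and their values are uncertain: Zfp984, Zfp524, Zfp992, Zfp993, Zfp991 and Zfp963.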

How the data were processed

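RNA sequencing of 6 mouse CD4+ T cell libraries, 3 stimulated and 3 unstimulated, was deposited by the authors as raw read counts per Ensembl gene, with no normalization. The tools STAR 2.5.2a, DESeq2 and HTSeq and the build GRCm38 are named, without a step for each, per the submitters' processing notes. For annotation release, strand setting and read filters, the sources used here give nothing. The labels gave group and replicate number, with neither batch nor date. Total counts ran from 29897720 to 30252923 per library, and the floor of 3 counts, 0.0943 to 0.106 CPM, covers counting error only. Pairs of libraries within a group differed by more than counting noise, with a dispersion index of 9.41 to 37.6. The members and gene lists were chosen with earlier results of these data known.

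Counts were fitted over all genes with edgeR 4.0.16 in R 4.3.3 (filterByExpr, TMM, robust quasi-likelihood fit on group alone, two-sided test, Benjamini-Hochberg adjustment over 13314 genes, threshold 0.05), with glmTreat for 2-fold. A gene's fold is 2 to the power of its log2 fold change. On simulated counts for these 13314 genes, 66% of 100 genes changed 1.5-fold and 92% of 100 changed 2-fold were recovered, and 7 unchanged genes were called. Names, types and coordinates came from GENCODE M21 on GRCm38, which matched 48058 of 48440 identifiers. Coding sequences of the longest GENCODE transcript were translated in place of RefSeq proteins, which were not used here. KRAB and SCAN profiles were built from 114 and 19 strict pattern matches and searched with pyhmmer 0.12.3 at an E-value of 0.001. Near-identical copies were found with blastn 2.17.0, and promoter windows were RefSeq's on GRCm38.p6.

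Named were the 8 largest rises and 8 deepest falls with at least 1 CPM in the higher group and no overlap, the 6 most abundant per exon length, up to 3 risers and 3 fallers by smallest p from each role list and from the co-repressor list, fixed genes of known role, genes at the limit of 60 reads and of smallest change, and the leading gene of each run described. Genes named outside this rule (Zfp142, Zfp287, Zfp52, Zfp472, Zfp786, the further NuRD genes and the promoter genes of the Zfp143 letters) were chosen after their values were seen. Alternatives were other normalizations, filters, DESeq2 1.42.0, limma-voom 3.58.1, a replicate block, left-out libraries, stricter thresholds and a stricter KRAB limit.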

Additional observations from a re-analysis of the deposited data

How the results depend on the processing

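Of 199 summary values under the alternatives, 190 stayed within the spread allowed and 9 moved, all of them from scaling or from leaving out replicate 2. Library size alone, or library sizes without the 20 most abundant genes, shifted the median of all tested genes to -0.18 or -0.19. The members' median was then -0.38 or -0.39, that of KRAB members -0.53 or -0.54, and that of members without KRAB -0.10 or -0.11, and 8 members rose past 2-fold in both. With libraries left out, 10 to 17 members rose past 2-fold. Over all alternatives 54 to 72 members rose and 87 to 133 fell, and no member was called in the direction opposite to its main call. The main fit did not pair libraries by replicate number, as the labels do not say whether that number marks a shared source. Same-numbered libraries deviated from their group means with correlations of 0.361, 0.0845 and 0.38. Pairs of unlike number gave -0.363 to -0.0117. Each library thus correlated best with its own number, a hint of pairing from the data and not the design. With the replicate block, 72 members rose and 117 fell.

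For 59 named genes, 998 values were recomputed: 952 kept direction and call, 15 lost the call, 16 gained it and 15 changed sign, all of these in genes not called. Zfp335 was 0.024 without replicate 1. Zfp638 was -0.10 with library size alone, -0.11 without the 20 most abundant genes and -0.049 without unstimulated replicate 3. Zfp523 was 0.11 without stimulated replicate 1, 0.09 without unstimulated replicate 3, 0.0081 without replicate 1 and 0.02 without replicate 3, and ran from -0.14 to 0.11 with libraries left out. Zfp493 was -0.13 with library size alone, -0.15 without the 20 most abundant genes, -0.017 with limma-voom, -0.0016 with the replicate block, -0.36 without stimulated replicate 1, -0.23 without unstimulated replicate 2 and -0.17 without replicate 2, and ran from -0.36 to 0.28 with libraries left out. Calls of Zfp148 and Zfp846 were lost without replicate 2, those of Zfp207 and Zfp445 there and under both scalings, and that of Zfp932 under 7 alternatives (DESeq2, limma-voom and edgeR adjusted p of 0.0194 to 0.142 over its alternatives). Calls were gained by Zfp410 under 6 alternatives (adjusted p of 0.00908 to 0.341 over its alternatives), by Zfp281 (0.0171 to 0.45) and Zfp809 (0.0118 to 0.254) with the replicate block and without unstimulated replicate 1 or replicate 1, and by Zfp622 (0.0137 to 0.862) and Zfp335 (0.0362 to 0.972) under both scalings. The causes were not tested. Depth limits KRAB members most: 50 of 155 had a mean under 2 CPM.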
